A study of Mus musculus with 19 samples.

Results

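The genes described here are the DNA replication and recombination genes, a list of 49 mouse genes that carry out origin licensing, fork progression, nucleotide supply, recombinational repair and checkpoint signalling. Members were chosen by name, through every probe annotated to a listed gene, and not by their measured values. The list was, however, drawn up with earlier results of these data known. Of the 49 genes, 46 had a probe in the annotation used here, and 39 passed a detection filter and were tested among 9422 features in all. Of these features 8680 were named genes and the rest single probes without a gene name, and all are called genes below.

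Before a cell divides, the origin recognition complex (Orc1 to Orc6) marks start sites on DNA, and Cdc6 and Cdt1 load the ring-shaped MCM2-7 helicase there. Cdc45, the GINS proteins and Mcm10 turn that ring into the active CMG helicase (Cdc45, MCM, GINS), after which polymerases, the sliding clamp and its loader, the single-strand binding protein RPA and the ligase copy the strands. Many of these genes are known targets of E2F transcription factors, which act at entry into S phase. Mouse pluripotent cells are known for a short cell cycle with a large share of cells in S phase.

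Illumina bead arrays were used to measure total RNA of embryonic stem cells (ESC) and of epiblast-like cells (EpiLC), the state that follows naive pluripotency. In the labels, the knockout of Foxd3, a gene for a forkhead transcription factor, was induced with 1 µM tamoxifen over 36 h, and the controls received ethanol. Each of the 4 groups (ESC ethanol, ESC tamoxifen, EpiLC ethanol, EpiLC tamoxifen) holds 3 samples. Knockout DMEM with serum was the base medium of every group, to which ESC had Lif and 2i (GSK and MEK inhibitors) added. The labels used here give neither the Cre construct, the clone, the strain nor an age, and nothing in them says that samples of a group were separate cultures, so p-values measure a spread that may be technical. No sample tests tamoxifen on cells without the inducible knockout.

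Of the 12 samples, 7 were hybridized in 2 rounds and 5 in a single round, which gave 19 arrays. The EpiLC ethanol samples and EpiLC tamoxifen sample 1 were hybridized in round 1 alone and ESC ethanol sample 1 in round 2 alone. In EpiLC, round 2 thus held only tamoxifen samples 2 and 3. Median raw intensity was 149.2 to 175.9 in round 1 and 190.3 to 219.7 in round 2, and 40.2 to 44.7% of 25697 probes were detected per array. No array detected the Foxd3 probe (0 of 19, smallest detection p-value 0.239), so the data hold no check of the knockout. Summed normalized intensity of the naive ESC marker list, of which 9 of 11 genes on the array were tested, was 56220 to 59440 in ESC and 8634 to 12320 in EpiLC. The EpiLC list, with 7 of 10 tested, gave 7164 to 9082 in ESC and 28890 to 36150 in EpiLC. The marker lists thus stood as the cell type labels say. In these bulk samples, fewer cells of a type and less RNA per cell cannot be told apart.

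The 46 genes with a probe had 80 probes, of which 63 were kept, and each of the 39 probes used (the brightest of a gene) was detected on 19 of 19 arrays. Member probes were read from 21 to 62 beads, with a median of 39. No probe was annotated here to Gins1, Gins2 or Rfc3, which are not analysed here. The probes of Orc1, Orc4, Pola1, Prim1, Brca1, Mcm8 and Xrcc5 did not pass the filter: 1 Orc4 probe was detected on 2 arrays, the Brca1 probe on 1 array, and the others on 0. These 7 genes include the catalytic subunits of polymerase alpha and primase, and Xrcc5, the partner of Xrcc6 in the Ku end-joining complex. A probe near background was not read as an absent transcript. In all 12 samples the 39 members lay close to their group means: the median residual SD was 0.09 on the log2 scale for members and 0.17 for all genes tested. The sets were not matched for brightness: the member probes were detected on all 19 arrays, where 3 were enough for a gene to be tested. The 6 members with a residual SD above 0.2 were Orc2, Orc3, Gins3, Pcna, Rfc4 and Rpa3. Mean log2 intensity was 6.63 to 8.31 for Orc2, Orc3, Pcna and Gins3, and 10.18 and 12.20 for Rfc4 and Rpa3.

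Promoter windows of members were read from RefSeq (GRCm38.p6), each running from 250 bases before to 50 bases after an annotated start, so that base 251 is the start when counted from the 5′ end on the gene's strand. Windows are shown for members called with tamoxifen (Rpa2, Pold2, Chek1, Chek2) and for the members with the 2 largest differences in each direction between the cell types in ethanol (Orc3, Chek1, Cdc45, Brca2). Mcm6 is added because its window held the most E2F motifs of any member, a choice made after the motifs were counted. Capitals mark the E2F motif TTTNNCGC, with each N being C or G, on either strand.
Orc3, chr4:34614893-34615192, minus strand: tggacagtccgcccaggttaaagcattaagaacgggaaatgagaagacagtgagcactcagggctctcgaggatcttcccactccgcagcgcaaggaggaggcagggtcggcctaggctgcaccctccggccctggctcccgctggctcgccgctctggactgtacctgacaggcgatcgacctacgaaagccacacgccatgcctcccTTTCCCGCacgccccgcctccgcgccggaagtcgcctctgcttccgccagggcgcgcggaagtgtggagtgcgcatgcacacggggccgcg
Mcm6, chr1:128359656-128359955, minus strand: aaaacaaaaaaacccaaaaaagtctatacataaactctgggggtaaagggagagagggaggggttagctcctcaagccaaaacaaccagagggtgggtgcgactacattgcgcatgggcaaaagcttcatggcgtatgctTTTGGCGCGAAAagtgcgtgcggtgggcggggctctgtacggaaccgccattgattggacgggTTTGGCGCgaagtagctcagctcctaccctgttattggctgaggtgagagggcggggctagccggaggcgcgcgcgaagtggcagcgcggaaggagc
Cdc45, chr16:18811923-18812222, minus strand: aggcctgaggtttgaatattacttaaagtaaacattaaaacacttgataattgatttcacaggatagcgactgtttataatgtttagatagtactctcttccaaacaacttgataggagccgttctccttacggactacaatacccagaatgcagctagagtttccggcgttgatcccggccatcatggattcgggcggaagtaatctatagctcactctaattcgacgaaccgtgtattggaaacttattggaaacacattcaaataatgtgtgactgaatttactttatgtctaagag
Rpa2, chr4:132768110-132768409, plus strand: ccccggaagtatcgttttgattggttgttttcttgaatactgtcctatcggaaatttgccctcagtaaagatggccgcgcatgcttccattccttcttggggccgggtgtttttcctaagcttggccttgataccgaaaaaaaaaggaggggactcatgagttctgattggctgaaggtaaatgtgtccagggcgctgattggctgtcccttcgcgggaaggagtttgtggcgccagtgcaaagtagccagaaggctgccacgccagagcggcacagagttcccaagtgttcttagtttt
Pold2, chr11:5877614-5877913, minus strand: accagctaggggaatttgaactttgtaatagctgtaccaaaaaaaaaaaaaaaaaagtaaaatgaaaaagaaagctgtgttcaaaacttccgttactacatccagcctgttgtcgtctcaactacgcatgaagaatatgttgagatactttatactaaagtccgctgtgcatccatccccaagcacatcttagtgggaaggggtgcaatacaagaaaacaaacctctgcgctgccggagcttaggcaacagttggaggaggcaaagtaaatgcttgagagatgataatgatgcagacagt
Pold2, chr11:5878207-5878506, minus strand: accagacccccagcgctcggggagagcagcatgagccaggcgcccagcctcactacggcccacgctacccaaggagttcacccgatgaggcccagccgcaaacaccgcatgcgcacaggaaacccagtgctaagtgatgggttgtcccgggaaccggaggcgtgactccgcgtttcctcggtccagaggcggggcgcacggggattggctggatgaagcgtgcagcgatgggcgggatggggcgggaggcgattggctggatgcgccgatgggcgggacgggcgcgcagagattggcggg
Brca2, chr5:150522371-150522670, plus strand: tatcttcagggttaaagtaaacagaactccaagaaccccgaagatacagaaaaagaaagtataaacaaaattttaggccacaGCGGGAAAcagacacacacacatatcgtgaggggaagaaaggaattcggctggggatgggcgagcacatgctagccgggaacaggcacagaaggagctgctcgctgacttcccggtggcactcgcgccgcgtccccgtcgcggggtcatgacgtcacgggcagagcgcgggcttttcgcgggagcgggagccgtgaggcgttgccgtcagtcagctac
Chek1, chr9:36726609-36726908, minus strand: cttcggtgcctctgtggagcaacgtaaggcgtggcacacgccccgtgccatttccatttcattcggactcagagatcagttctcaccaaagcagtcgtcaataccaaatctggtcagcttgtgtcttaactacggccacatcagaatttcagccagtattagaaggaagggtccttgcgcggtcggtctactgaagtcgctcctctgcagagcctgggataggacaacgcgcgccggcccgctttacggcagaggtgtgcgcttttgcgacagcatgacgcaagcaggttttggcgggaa
Chek2, chr5:110839733-110840032, plus strand: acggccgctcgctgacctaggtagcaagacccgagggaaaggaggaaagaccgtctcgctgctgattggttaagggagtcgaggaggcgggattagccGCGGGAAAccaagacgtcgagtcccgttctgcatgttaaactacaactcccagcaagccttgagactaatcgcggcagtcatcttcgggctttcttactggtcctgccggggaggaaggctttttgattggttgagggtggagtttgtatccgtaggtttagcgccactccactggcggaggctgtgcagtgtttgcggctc

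Among the windows shown, the E2F motif stood once each in Orc3 (TTTCCCGC from base 210), Brca2 (GCGGGAAA from base 83, on the opposite strand) and Chek2 (GCGGGAAA from base 99, opposite strand). In Mcm6 it stood at bases 141 and 204 (TTTGGCGC) and at base 145 (GCGCGAAA, opposite strand, sharing letters with the site at 141). No exact match stood in the windows of Cdc45, Rpa2, Pold2 or Chek1. Of the 42 members with a window, 17 held the motif in at least 1 window, or 40.5%, and of the 34 tested members with a window 13 did, or 38.2%. The same motif was found for 4.75% of the 7076 tested genes with a window and for 2.6% of all 27025 genes with one. Counted by window, the shares were 32.5% for tested members and 3.87% for tested genes, with the same median GC content of 60.7% in each set. By role, the motif was held by 2 of 2 helicase loading genes (Cdc6, Cdt1) and by 4 of 5 MCM2-7 genes (Mcm3, Mcm5, Mcm6, Mcm7), and by 0 of 3 RPA and 0 of 3 nucleotide supply genes. The CCAAT box (CCAAT, both strands) stood for 61.8% of tested members and 43.9% of tested genes, and in 1 case a CCAAT box of a tested member overlapped an E2F motif. These shares describe letters in the windows, with no test.

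**Figure D1:**
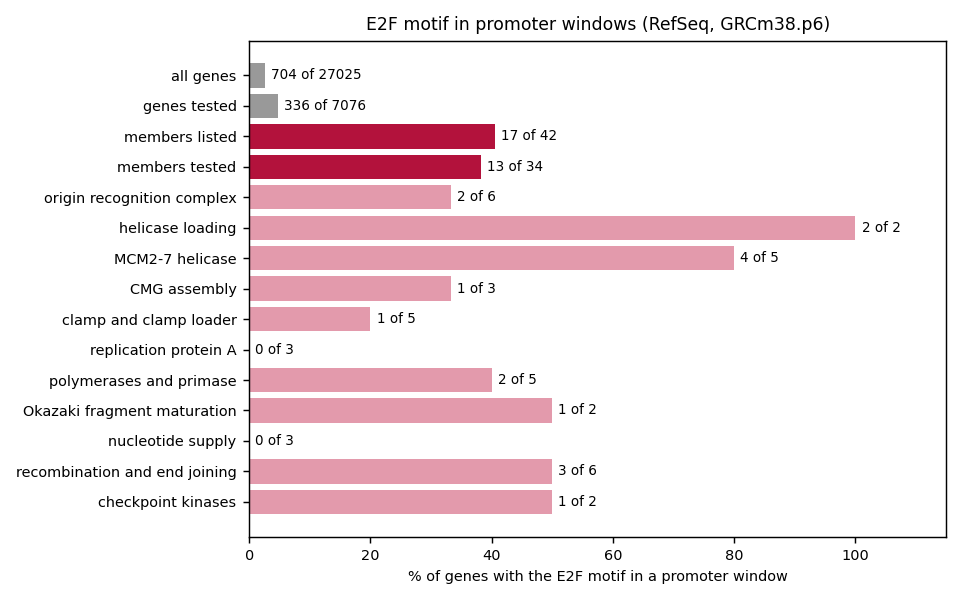
Share of genes with the E2F motif in at least 1 promoter window (x axis, %), for all genes, for genes tested on the array, for the members and for each member role, with counts beside the bars. Tested members stood at 38.2% against 4.75% of tested genes, and listed members at 40.5% against 2.6% of all genes. Roles ranged from 0 of 3 to 2 of 2.

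With tamoxifen in ESC, 2 of the 39 members fell and 0 rose: Pold2, the accessory subunit of DNA polymerase delta, and Rpa2, the middle subunit of the single-strand binding protein RPA. Over all genes tested, 9.09% were called in this comparison, 5.58% as higher and 3.5% as lower (limma, Benjamini-Hochberg adjusted p under 0.05), so the members' share was below the background for either direction and near it for lower calls. All 6 members with an unadjusted limma p under 0.05 had a negative difference. Of the 9422 genes, 2215 had such a p in either direction, a larger share than 6 of 39. Differences were small: the member median was -0.07 beside -0.01 for all genes, and the median absolute difference was 0.09 beside 0.16. For 34 of 39 members the 95% confidence interval lay within 0.5 of 0 on the log2 scale. For such interval counts, here and below, no share over all genes was taken.

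Pold2 read 11.26, 11.16 and 11.27 in ESC ethanol samples 1 to 3 and 10.90, 10.70 and 10.74 in the tamoxifen samples (normalized log2 intensity, as below). Every tamoxifen sample lay below every ethanol sample. The log2 difference was -0.45 (SE 0.08, n = 3 per group), or 1.37-fold lower, with a limma adjusted p of 0.00615. Within round 1 it was -0.41 and within round 2 -0.47. Of 17 alternatives, scaling to equal array medians ended the call (-0.35, adjusted p 0.0536). In EpiLC, Pold2 read 11.34, 11.34 and 11.43 in ethanol and 11.22, 11.34 and 11.21 in tamoxifen, where the highest tamoxifen sample lay just under the lowest ethanol sample, a difference of -0.11 that was not called. Its promoter windows, shown above for 2 annotated starts, hold no E2F motif.

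Rpa2 read 11.18, 11.31 and 11.25 in ESC ethanol and 10.83, 10.90 and 10.87 in ESC tamoxifen. The groups did not overlap here either. The log2 difference was -0.38 (SE 0.08, n = 3 per group), with a limma adjusted p of 0.0151. A second, dimmer Rpa2 probe, detected on 17 arrays, differed by 0.09 in ESC, and with the mean of both probes the difference was -0.15 with an adjusted p of 0.372. The call was lost in 5 of 17 alternatives: with that mean, with equal array medians (adjusted p 0.0994), in round 1 alone (0.113), and without ESC ethanol sample 2 (0.0597) or ESC tamoxifen sample 1 (0.054). In EpiLC, Rpa2 read 11.10, 11.26 and 11.18 in ethanol and 10.90, 11.11 and 11.05 in tamoxifen, with overlap (-0.16). The partner subunits Rpa1 and Rpa3, called in neither treatment comparison, differed by 0.04 and 0.08 in ESC.

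Orc5, an origin recognition subunit, had the next smallest p. It read 11.47, 11.32 and 11.25 in ESC ethanol and 11.09, 11.08 and 11.02 in ESC tamoxifen, again without overlap, a difference of -0.28 (SE 0.08) with a limma adjusted p of 0.0535, which misses the threshold. Its EpiLC values were 11.27, 11.40 and 11.35 in ethanol and 11.19, 11.31 and 11.25 in tamoxifen, with overlap. Same-numbered ethanol and tamoxifen samples deviated together from their group means, and, fitted with the sample number as a block, 5 members fell in ESC and 0 rose: Orc5 (adjusted p 0.0181), Mcm7, a subunit of the MCM2-7 ring (-0.36, 0.0103), Cdc45 of the CMG helicase (-0.27, 0.034), Rpa2 (0.00447) and Pold2 (0.00491). With that block, 21.6% of all genes were called, 12% as higher and 9.59% as lower. Without the block, 9 members had tamoxifen samples wholly below ethanol samples and 1, Rrm2, wholly above, where 15.8% and 16.7% of all genes did, or 32.5% in either direction.

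Lig1, the ligase that joins Okazaki fragments, showed unequal values between its probes. The probe used differed by -0.03 in ESC, and another Lig1 probe, detected on 19 arrays, differed by -0.44 with an adjusted p of 0.0237 over 12529 kept probes. That second probe made 3 of 63 kept member probes lower in ESC, beside 8.21% of all kept probes called in either direction. No member had probes called in opposite directions.

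Summed intensities of other cell type marker lists differed with tamoxifen in ESC, and their part in the differences above was not tested. A sum is set mostly by the brightest genes of a list, so counts by gene follow the sums. The summed intensity of the primitive endoderm list, with 3 of 8 genes tested, was 1283 to 1521 with ethanol and 2589 to 3814 with tamoxifen, and Foxa2, Gata4, Pdgfra, Sox17 and Sox7 were detected on 0 ESC arrays. The trophoblast list, with 6 of 8 tested, gave 4049 to 4658 and 7672 to 8483, with Elf5 and Eomes at 0 ESC arrays. The fibroblast list, with 3 of 8 tested, gave 2012 to 2189 and 1218 to 1542, with Col1a1, Col1a2, Col3a1, Postn, Lum and Dcn at 0 ESC arrays. The shared pluripotency list, with 5 of 5 tested, gave 22040 to 22300 in ethanol and 19140 to 19520 in tamoxifen. By gene, limma called 2 of 3 endoderm and 1 of 6 trophoblast genes higher, and 0 lower in either list. The trophoblast differences ran from -0.13 to 0.98, with a median of 0.17. Lower were 1 of 3 fibroblast genes (differences from -0.62 to -0.01) and 1 of 5 shared pluripotency genes, with 0 higher in either list. Of all genes, 5.58% were higher and 3.5% lower.

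**Figure D2:**
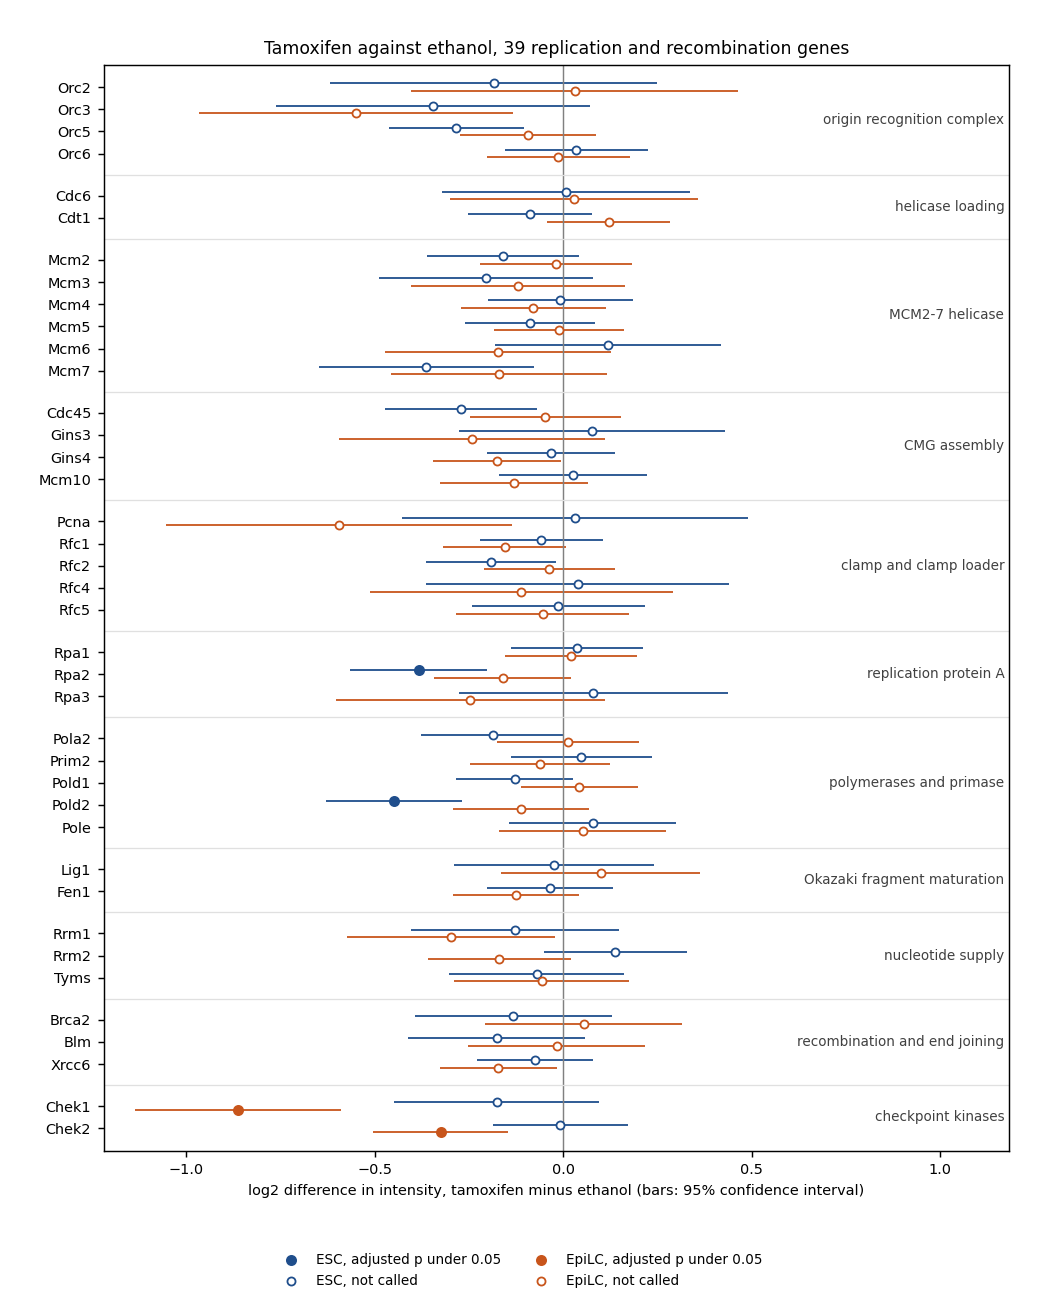
Log2 difference in intensity between tamoxifen and ethanol samples (x axis) for the 39 tested members, grouped by role, in ESC (blue) and EpiLC (orange), with 95% confidence intervals over 3 samples per group. Filled points passed an adjusted p of 0.05: Pold2 and Rpa2 in ESC, Chek1 and Chek2 in EpiLC, each below 0.

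With tamoxifen in EpiLC, again 2 members fell and 0 rose, and these were the checkpoint kinases Chek1 and Chek2, which act downstream of ATR and ATM when replication stalls or DNA breaks. Over all genes, 6.91% were called in this comparison, 4.74% as higher and 2.17% as lower. Of the 39 members, 30 had a negative difference, a count that was not taken over all genes. The member median was -0.09 beside -0.02 for all genes, so both were below 0, and the median absolute difference was 0.11 beside 0.15. For 31 members the confidence interval lay within 0.5 of 0.

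Chek1 read 7.48, 7.58 and 7.42 in EpiLC ethanol and 6.61, 6.79 and 6.49 in EpiLC tamoxifen. Every tamoxifen sample was below every ethanol sample, by 0.87, 0.79 and 0.93 for the same-numbered pairs. The log2 difference was -0.86 (SE 0.12, n = 3 per group), or 1.82-fold lower, with a limma adjusted p of 0.0026. In ESC, Chek1 read 6.88, 7.04 and 6.84 in ethanol and 6.95, 6.79 and 6.49 in tamoxifen, and those groups overlapped. The probe is dim: raw round 1 intensity of Chek1 was 261.2 to 324.1 in EpiLC ethanol and 191.8 to 228.7 in EpiLC tamoxifen, where array medians ran from 149.2 to 175.9. Without background correction the difference was -0.42, and it was called in all 16 alternatives run. The second Chek1 probe, detected on 16 arrays, differed by -0.35 with an adjusted p of 0.362 over all kept probes.

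Chek2 read 9.39, 9.57 and 9.47 in EpiLC ethanol and 9.11, 9.15 and 9.19 in EpiLC tamoxifen, without overlap. The log2 difference was -0.33 (SE 0.08, n = 3 per group), or 1.25-fold lower, with a limma adjusted p of 0.0374. That call was lost in 9 of 16 alternatives, most with the mean of its kept probes (-0.16, limma adjusted p 0.379). Others were round 1 alone (-0.31, adjusted p 0.155) and each of 5 single samples left out (adjusted p 0.0772 to 0.0983). In ESC it read 9.61, 9.62 and 9.71 in ethanol and 9.73, 9.54 and 9.64 in tamoxifen, with overlap and a difference of -0.01. Another Chek2 probe on 19 arrays differed by -0.29 in EpiLC, and a dim probe detected on 6 arrays by 0.15. Of the 3 kept Chek2 probes, 1 was called when all kept probes were tested.

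Orc3, a subunit that binds the other origin recognition proteins, had the next smallest p in EpiLC. It read 7.65, 7.26 and 7.83 in EpiLC ethanol and 7.36, 6.81 and 6.93 in EpiLC tamoxifen, a difference of -0.55 (SE 0.19) with a limma adjusted p of 0.113, and the groups overlapped. With the sample number as a block 5 members fell in EpiLC and 0 rose: Orc3 (adjusted p 0.0486), the sliding clamp Pcna (-0.60, 0.0153), Rrm1, the large subunit of ribonucleotide reductase (-0.30, 0.0173), Chek1 (0.00124) and Chek2 (0.0192). With that block, 19.9% of all genes were called, 11% as higher and 8.96% as lower. Pcna read 8.06, 8.04 and 7.55 in EpiLC ethanol and 7.69, 7.29 and 6.89 in EpiLC tamoxifen, and its same-numbered pairs differed by -0.37, -0.75 and -0.67. Without the block, 10 members lay wholly below in tamoxifen and 1, Cdt1, wholly above, where 12.6% and 12.1% of all genes did, or 24.7% in either direction.

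In EpiLC the trophoblast list summed to 5722 to 6752 with ethanol and to 13460 to 16820 with tamoxifen, Elf5 being detected on 0 arrays and Eomes on 2 tamoxifen arrays. The primitive endoderm list gave 1129 to 1154 and 1141 to 1752, and the fibroblast list 1295 to 1496 and 1359 to 1694, with Col1a1, Col1a2, Col3a1, Postn and Lum at 0 arrays. Of the endoderm genes, Sox17 and Sox7 were detected on 2 EpiLC tamoxifen arrays each, Pdgfra on 1, and all 3 on 0 EpiLC ethanol arrays. EpiLC tamoxifen had 3 arrays in round 1 and 2 in round 2, and EpiLC ethanol 3 in round 1 alone. The round 2 arrays detected 11371 to 11481 probes, and round 1 arrays 10780 to 10965 in tamoxifen and 10707 to 11255 in ethanol. These array counts, and that of Eomes, thus do not compare like with like. The EpiLC list summed to 34400 to 36150 in ethanol and 28890 to 32690 in tamoxifen, without overlap. Its genes went both ways: of 7 tested, limma called 1 higher and 2 lower, with differences from -0.41 to 0.45. The naive ESC list gave 8634 to 10640 and 11180 to 12320, with Tcl1, Nr0b1 and Prdm14 at 0 EpiLC arrays. Of its 9 tested genes 3 were called higher and 0 lower, with differences from -0.46 to 1.15. Of the trophoblast genes 5 of 6 were called higher, and of the endoderm and fibroblast genes 0 in either direction. Of all genes, 4.74% were called higher and 2.17% lower. The part of these markers in the fall of the checkpoint kinases was not tested.

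**Figure D3:**
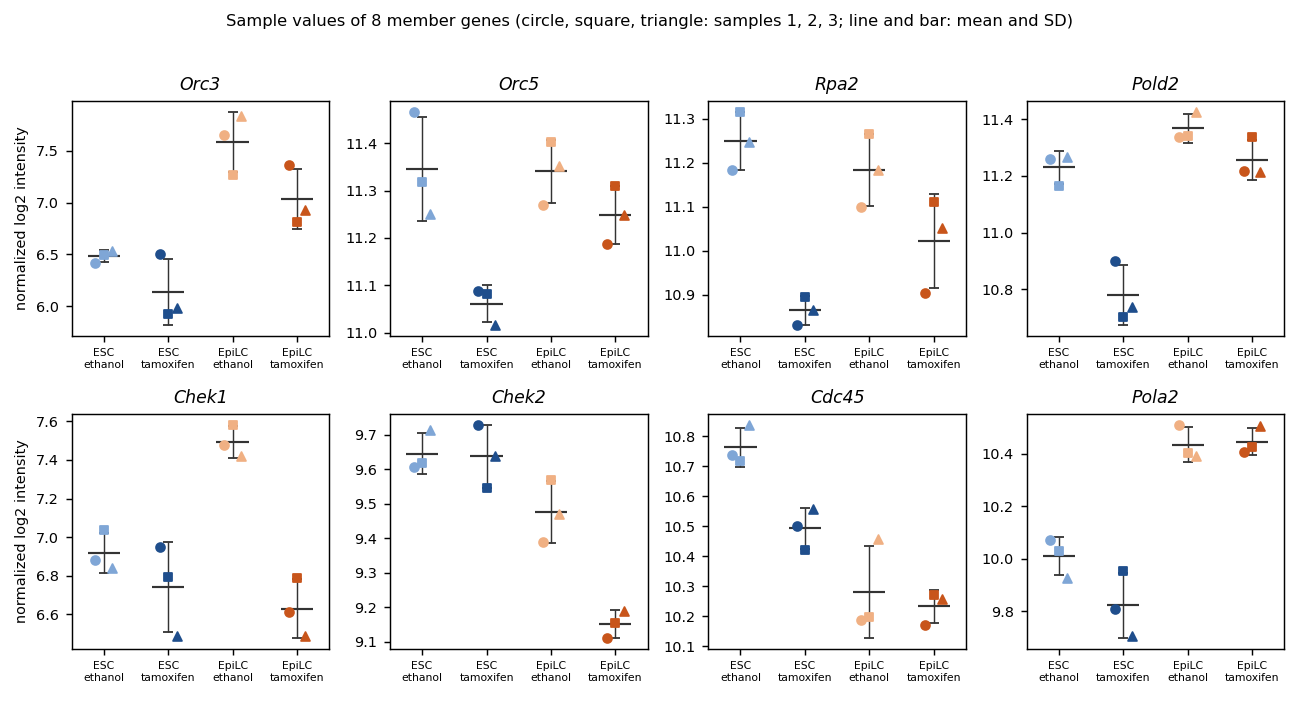
Normalized log2 intensity (y axis) of 8 members in the 3 samples of each group, with group mean and SD. Rpa2, Pold2 and Orc5 were lowest in ESC tamoxifen, Chek1 was highest in EpiLC ethanol, Chek2 was lowest in EpiLC tamoxifen, and Orc3 and Pola2 were higher in EpiLC than in ESC.

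Whether tamoxifen acted differently in the cell types was tested as the difference of the tamoxifen effects. None of the 39 members was called by limma, beside 2.59% of all genes (1.41% higher, 1.18% lower). Of the members, 4 had an unadjusted limma p under 0.05: Chek1, Pold2, Chek2 and Rrm2. So had 1593 of the 9422 genes, which is a larger share. For Chek1 the difference was -0.69 (SE 0.18) with an adjusted p of 0.0701, and, fitted with the sample number as a block, its adjusted p was 0.0173, where 12.2% of all genes were called (5.89% higher, 6.28% lower). Over the 22 alternatives run its adjusted p ranged from 0.0173 to 0.274. For Pold2 the difference was 0.34 (SE 0.12, adjusted p 0.171) and for Chek2 -0.32 (SE 0.12, adjusted p 0.195). The fall of Pold2 and Rpa2 in ESC and of Chek2 in EpiLC was therefore not shown to differ between the cell types.

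Between the cell types in ethanol, with Foxd3 intact per the labels, 5 members were higher in EpiLC and 7 were lower, or 12 of 39, where 56.3% of all genes were called (29.8% higher, 26.4% lower). Orc3 was the sole member with an absolute log2 difference of at least 1, a size that 20.5% of all genes reached. The member median was -0.08 beside 0.03, and the median absolute difference was 0.16 beside 0.40. For 24 members the confidence interval lay within 0.5 of 0. The members' share of calls and their median size thus stood below those of the tested genes as a whole, which is a description with no test of the list. Samples of the cell types did not overlap for 7 higher and 14 lower members, where 33% and 29.2% of all genes did so, or 62.1% in either direction.

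Among the licensing genes, Orc3 read 6.42, 6.49 and 6.54 in ESC ethanol, far below the EpiLC ethanol values given above. The log2 difference was 1.10 (SE 0.19, n = 3 per group), or 2.14-fold, with a limma adjusted p of 0.000404. Orc3 is dim, with round 1 raw intensity of 177.8 to 178.4 in ESC ethanol and 275.8 to 291.3 in EpiLC ethanol, and without background correction the difference was 0.51. The subunits Orc2, Orc5 and Orc6 were not called. Cdt1, the helicase loader, read 12.66, 12.64 and 12.72 in ESC and 12.47, 12.40 and 12.50 in EpiLC. Its difference of -0.22 (SE 0.07, adjusted p 0.0272) was lost in 8 of 16 alternatives.

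Of the helicase genes, Cdc45 read 10.74, 10.72 and 10.84 in ESC and 10.19, 10.20 and 10.46 in EpiLC. No sample overlapped, and the difference was -0.48 (SE 0.09), or 1.40-fold lower, with a limma adjusted p of 0.000791. Mcm5, a subunit of the MCM2-7 ring, read 14.34, 14.23 and 14.24 and 13.99, 13.92 and 13.91, a difference of -0.33 (SE 0.08, adjusted p 0.00342). The other MCM2-7 members differed by -0.32 (Mcm7) to 0.05 (Mcm3) and were not called. A dimmer Mcm6 probe on 19 arrays differed by -0.38 (adjusted p 0.00178 over all kept probes), where the probe used gave -0.27 and was not called.

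At the fork, Pola2, the second subunit of polymerase alpha, read 10.07, 10.03 and 9.93 in ESC and 10.51, 10.40 and 10.39 in EpiLC. It was higher by 0.42 (SE 0.09) with a limma adjusted p of 0.0013. The clamp loader subunits moved in opposite directions. Rfc1, the large subunit, read 11.49, 11.42 and 11.45 in ESC and 11.77, 11.84 and 11.75 in EpiLC, higher by 0.33 (SE 0.07, adjusted p 0.00247). Rfc2 read 12.25, 12.23 and 12.24 and 11.94, 11.77 and 11.96, a difference of -0.35 (SE 0.08, adjusted p 0.00248). Rfc4 and Rfc5 were not called. Lig1 read 11.80, 11.89 and 11.92 in ESC and 11.70, 11.46 and 11.16 in EpiLC, a difference of -0.43 (SE 0.12, adjusted p 0.00983), and all 4 kept Lig1 probes were below 0 (-0.27 to -0.80). Fen1, the flap nuclease that works with Lig1, differed by 0.13 and was not called.

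Of the recombination genes, Brca2, a mediator of homologous recombination, read 9.54, 9.92 and 9.60 in ESC and 9.24, 9.38 and 9.12 in EpiLC. The difference was -0.44 (SE 0.12) with a limma adjusted p of 0.00802, and a second probe gave -0.53. Blm, the helicase that dissolves joined DNA intermediates, read 11.96, 11.76 and 11.95 and 11.42, 11.73 and 11.60, a difference of -0.30 (SE 0.11, adjusted p 0.0307) that was lost in 6 of 16 alternatives. Xrcc6, the Ku70 subunit of end joining, read 12.61, 12.50 and 12.61 and 12.73, 12.80 and 12.72, a difference of 0.18 (SE 0.07, adjusted p 0.049) that was lost in 10 of 16. Chek1 was higher in EpiLC ethanol than in ESC ethanol by 0.57 (SE 0.12, adjusted p 0.002), from the values given above, and by 0.29 without background correction. Over the kept probes, a Mcm10 probe other than that used was lower in EpiLC (-0.36, adjusted p 0.00323) where the probe used gave -0.17, and a second Blm probe gave -0.22 and was not called. By promoter, the E2F motif was held by 2 of 5 members higher in EpiLC, 4 of 6 lower with a window and 7 of 23 not called.

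**Figure D4:**
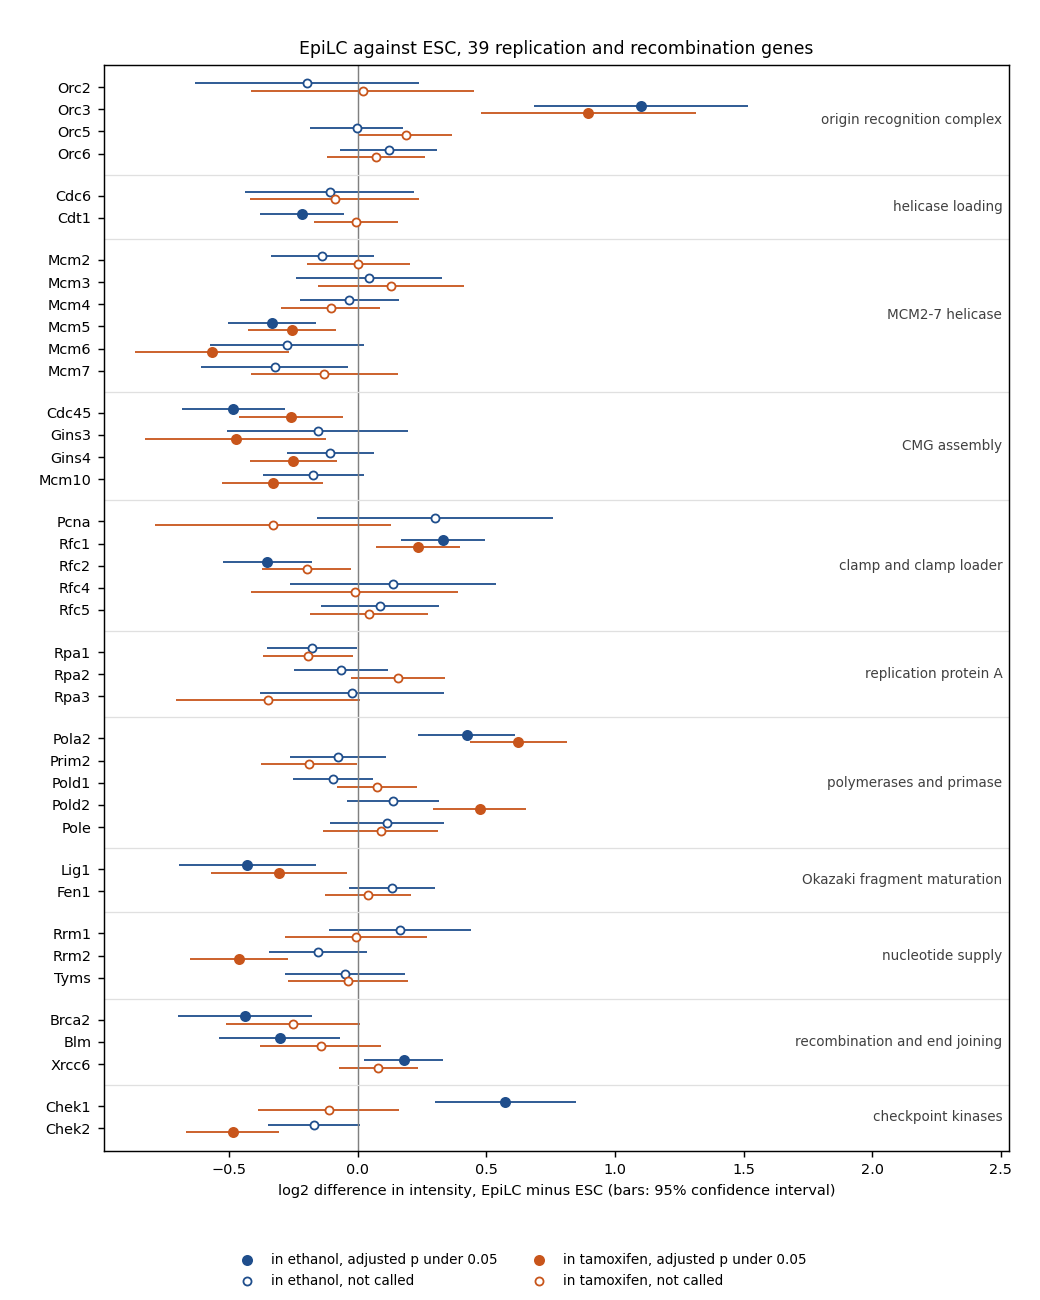
Log2 difference in intensity between EpiLC and ESC samples (x axis) for the 39 tested members by role, in ethanol (blue) and in tamoxifen (orange), with 95% confidence intervals over 3 samples per group. Orc3 reached 1.10 in ethanol, and most other members lay within 0.5 of 0 in either treatment.

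In tamoxifen, 4 members were higher in EpiLC than in ESC and 9 were lower, where 56.5% of all genes were called (29.4% higher, 27.1% lower). This comparison shares no sample with that in ethanol, but the comparisons are not independent. Same-numbered ethanol and tamoxifen samples deviated together (correlations of 0.371 to 0.471 in ESC and 0.497 to 0.567 in EpiLC). A shared fit gave the spread of both. Higher in EpiLC were Orc3 (0.90, SE 0.19), Pola2 (0.62, SE 0.09), Pold2 (0.47, SE 0.08) and Rfc1 (0.23, SE 0.07). Pold2 was not called between the cell types in ethanol (0.14), and its EpiLC tamoxifen values above all exceeded the ESC tamoxifen values. Lower in EpiLC were 4 of 4 tested CMG assembly genes: Gins3 (-0.47), Mcm10 (-0.33), Cdc45 (-0.26) and Gins4 (-0.25). Of 17 alternatives, Cdc45 lost the call in 6, Gins3 in 4 and Gins4 in 1, and without ESC tamoxifen sample 1 the Gins3 difference was -0.28 (adjusted p 0.11). Lower as well were Mcm6 (-0.57, SE 0.14), Chek2 (-0.49, SE 0.08), Rrm2 of ribonucleotide reductase (-0.46, SE 0.09), Lig1 (-0.31) and Mcm5 (-0.25), of which Lig1 lost the call in 7 alternatives and Mcm5 in 4. With equal array medians Rfc1 differed by 0.06 (adjusted p 0.626).

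The members called in ethanol read as follows in the tamoxifen samples. Orc3 read 6.50, 5.93 and 5.98 in ESC tamoxifen, and Cdc45 read 10.50, 10.42 and 10.56 in ESC and 10.17, 10.27 and 10.26 in EpiLC. Mcm5 read 14.16, 14.22 and 14.16 in ESC and 13.82, 14.02 and 13.94 in EpiLC. For all 3 genes the samples of the cell types did not overlap, in the same direction as in ethanol. Pola2 read 9.81, 9.95 and 9.71 in ESC and 10.41, 10.42 and 10.51 in EpiLC, Rfc1 read 11.44, 11.40 and 11.35 and 11.55, 11.69 and 11.65, and Rfc2 read 11.96, 12.09 and 12.10 and 11.84, 11.83 and 11.88. Those 3 fork genes did not overlap between the cell types either, with Pola2 and Rfc1 higher and Rfc2 lower in EpiLC. Lig1 read 11.84, 11.82 and 11.87 in ESC and 11.64, 11.56 and 11.42 in EpiLC, and Brca2 read 9.46, 9.67 and 9.52 and 9.18, 9.31 and 9.41. Xrcc6 read 12.50, 12.50 and 12.48 in ESC and 12.59, 12.59 and 12.55 in EpiLC. Lig1 and Brca2 lay lower and Xrcc6 higher in every EpiLC sample. In this comparison 63.7% of all genes did not overlap, and Rfc2, Brca2 and Xrcc6 were not called by limma without a block. Cdt1 read 12.51, 12.61 and 12.64 in ESC and 12.62, 12.52 and 12.60 in EpiLC, and Blm read 11.61, 11.83 and 11.70 and 11.46, 11.69 and 11.55. Cdt1 and Blm overlapped between the cell types in tamoxifen.

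Mcm6, whose promoter window holds 3 E2F motifs, read 12.51, 12.24 and 12.16 in ESC tamoxifen and 11.78, 11.84 and 11.60 in EpiLC tamoxifen, without overlap. Dimmer Mcm6 probes gave -0.23 and -0.48, below 0 as well. Rrm2 read 11.33, 11.42 and 11.43 in ESC tamoxifen and 10.84, 11.02 and 10.95 in EpiLC tamoxifen, without overlap, and another Rrm2 probe differed by -0.13 and was not called. Tyms, thymidylate synthase, differed by -0.04 at the probe used and by 0.61 at a probe detected on 8 arrays, which was called. The dimmer Rpa2 probe gave a called difference of -0.61 where the probe used gave 0.16 and was not called. Chek1, higher in EpiLC ethanol, differed by -0.11 in tamoxifen with an adjusted p of 0.466. Without EpiLC tamoxifen sample 3, 8 members were called in place of 13. In these samples same-numbered ESC and EpiLC tamoxifen samples deviated together as well, and, fitted with the sample number as a block, 4 members were higher and 13 lower, adding Brca2 (-0.25, adjusted p 0.0385), Rfc2 (-0.20, 0.0389), Rpa1 (-0.19, 0.0482) and Rpa3 (-0.35, 0.0231), beside 62.2% of all genes (32.2% higher, 29.9% lower). Samples did not overlap for 8 higher and 13 lower members, where 63.7% of all genes did so (33.1% and 30.6%).

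**Figure D5:**
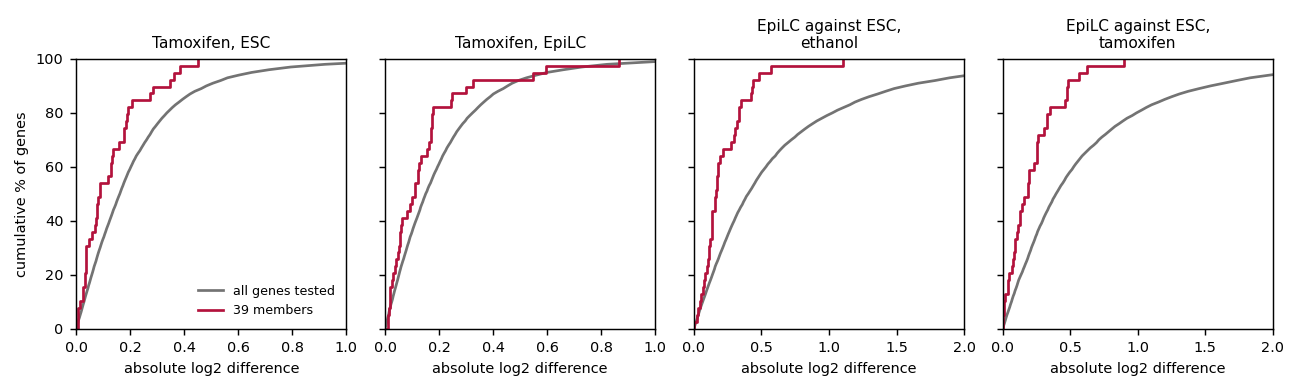
Cumulative percentage of genes (y axis) by absolute log2 difference (x axis) for the 39 members (red) and all 9422 genes tested (grey) in the 4 two-group comparisons. The member curve lies to the left of the curve of all genes for most of its course: member medians were 0.09, 0.11, 0.16 and 0.19 against 0.16, 0.15, 0.40 and 0.40.

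A wider set of 132 genes of the same pathways, of which 93 were tested, was read as a frame for the members. With tamoxifen in ESC, 1 of the 93 rose and 5 fell, beside the 9.09% of all genes called (5.58% higher, 3.5% lower). Rb1, the retinoblastoma protein that holds E2F factors in check, rose by 1.25 (SE 0.17, limma adjusted p 0.000991), from 8.01, 8.15 and 7.87 in ESC ethanol to 9.22, 9.27 and 9.28 in ESC tamoxifen. Lower were Atrip (-0.47), the partner of the ATR kinase, Shmt1 (-0.42) and Umps (-0.36) of nucleotide synthesis, the helicase Wrn (-0.37) and Fancd2 (-0.28) of crosslink repair. With tamoxifen in EpiLC limma called 0 of the 93, with 17 at an unadjusted p under 0.05, beside 2117 of all 9422 genes. When the tamoxifen effects were set against each other it likewise called 0, with 9 under 0.05, beside 1593 of all genes. Both shares of the 93 were smaller than those over all genes. With the sample number as a block the counts were 7 higher and 13 lower in ESC, 2 and 11 in EpiLC, and 2 and 7 for the difference, where that block called 21.6%, 19.9% and 12.2% of all genes.

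Between the cell types in ethanol, 24 of the 93 were higher in EpiLC and 27 were lower, with a median absolute difference of 0.36, and in tamoxifen 21 were higher and 24 lower. Beside these stand 56.3% and 56.5% of all genes called, with a median absolute difference of 0.40 over all genes in ethanol, so the wider set was near the background and the genes named below are its extremes by list. The E2F and pocket protein list had 5 of 11 higher and 2 lower in ethanol, led by E2f6 (1.12), a repressor of the family, and E2f1 (-0.96), an activator. E2f1 read 11.10, 10.99 and 11.09 in ESC ethanol and 9.93, 10.14 and 10.22 in EpiLC ethanol. In tamoxifen E2f6 and E2f1 differed by 0.90 and -0.87. Of 14 other fork and polymerase genes, 4 were higher, led by topoisomerase Top1 (1.16), and 6 lower, led by the helicase Pif1 (-0.84). In tamoxifen Top1 (0.80) and the polymerase epsilon subunit Pole4 (-1.07) led that list. Of 8 other licensing and firing genes, 3 were higher in ethanol, led by Wdhd1 (0.52), and 0 lower, and in tamoxifen 2 were higher, led by the kinase gene Cdc7 (0.48).

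Of 17 other recombination genes, 5 were higher in EpiLC ethanol, led by Rad52 (0.56), and 4 lower, led by Bard1, the Brca1 partner (-0.78). In tamoxifen Bard1 (-0.69) led the lower genes of that list. Of 6 Fanconi anaemia genes Fancd2 was higher (0.34 in ethanol, 0.60 in tamoxifen), and Fanci, the protein that pairs with Fancd2, was lowest (-1.25 and -0.997). Of 4 mismatch repair genes 2 were lower in either treatment, led by Mlh3 (-1.11 and -1.15). The checkpoint list had Hus1 lower (-0.50 and -0.64) and, in tamoxifen, Atrip higher (0.46). The nucleotide supply list was led by Dut (0.59) and Shmt1 (-0.65) in ethanol and by Gart (0.41) and Tk1 (-0.70) in tamoxifen. Histone chaperone genes Nasp (0.57 and 0.41) and Asf1b (-0.76 and -0.37) led the chromatin list, and Lig3 (0.60 and 0.35) and Xrcc1 (-0.45 and -0.57) the end joining list.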

How the data were processed

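The members and gene lists were chosen with earlier results of these data known. Per the file headers, the authors deposited mean bead intensity, a detection p-value, a bead standard error and a bead count (values of other kinds) for 25697 probes on 19 arrays. Their normalized intensity table is used as an alternative, with values under 1 set to 1. Per the submitters' processing notes limma was used, with no version given. Here, with R 4.3.3 and limma 3.58.1, intensities were background-corrected from detection p-values, quantile-normalized and put on the log2 scale (neqc, offset 16), and each sample got 1 value from a fit of sample and hybridization round. Fold changes and log2 differences are on this scale, which understates the change of dim probes. Probes with a detection p under 0.01 on at least 3 arrays were kept (12529). The brightest probe stood for each of 8680 named genes, and each kept probe without a gene name stood alone (9422 features). Of all probes, 23978 were named through RefSeq tables or the platform annotation and 1719 had no entry.

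Linear models with empirical Bayes moderation were fitted to the 4 groups for 5 comparisons, with Benjamini-Hochberg adjustment over 9422 features and calls at an adjusted p under 0.05. Depth is set by the beads and arrays, whose number limits precision, and an exact permutation test of 3 against 3 samples cannot go below 0.1. Sample values are given for members called in a tamoxifen comparison or between the cell types in ethanol and for the member with the next smallest p, and those of Mcm6, Pcna, Rrm2, Rb1 and E2f1 were added after their values were seen. Same-numbered ethanol and tamoxifen samples had correlated deviations from their group means (0.398, 0.371 and 0.471 in ESC, 0.547, 0.567 and 0.497 in EpiLC), as had ESC and EpiLC tamoxifen samples (0.129, 0.163 and 0.215), so blocked values are given there. For ESC and EpiLC ethanol samples the correlations were 0.0599, 0.121 and 0.253, and blocked values are given in the closing section. The scripts were tested on simulated data. Alternatives covered scaling, background, filter, probe choice, round, random block, array weights, replicate block and each sample left out.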

Additional observations from a re-analysis of the deposited data

Results flagged for a closer look

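For 4 members every same-numbered ESC pair moved one way with tamoxifen and every EpiLC pair the other way, or 10.3% of the 39 tested, the same share as the 967 of 9422 genes with that pattern (10.3%). The difference of the tamoxifen effects was tested by limma for each and none was called. Cdt1, the helicase loader, differed by -0.16, -0.03 and -0.08 in the ESC pairs and by 0.15, 0.11 and 0.10 in the EpiLC pairs, and the difference of the effects was 0.21. Mcm6 differed by 0.25, 0.02 and 0.09 in ESC and by -0.27, -0.23 and -0.02 in EpiLC (-0.29). Pold1, the catalytic subunit of polymerase delta, differed by -0.22, -0.06 and -0.11 in ESC and by 0.05, 0.01 and 0.07 in EpiLC (0.17). Rrm2 differed by 0.15, 0.16 and 0.11 in ESC and by -0.18, -0.04 and -0.28 in EpiLC (-0.31, adjusted p 0.233).

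For Chek1 the tamoxifen effects differed by -0.69, called with the sample number as a block (adjusted p 0.0173) and not without it (0.0701). Its pairs differed by 0.07, -0.24 and -0.36 in ESC and by -0.87, -0.79 and -0.93 in EpiLC.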

How the results depend on the processing

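The median member difference stayed below 0 in every alternative run for the 4 two-group comparisons. The fall of Chek1 in EpiLC was called in all 16 alternatives and that of Pold2 in ESC in all except equal medians (-0.35, adjusted p 0.0536). Of the single-member values under an alternative, 585 kept direction and call, 65 lost the call, 10 gained it and 6 reversed. Chek2 in ESC, near 0, turned to 0.124 with equal medians, 0.014 with the mean of probes and 0.0866 in round 1 alone, and ranged from -0.0484 to 0.0361 with 1 sample left out (above 0 without ESC ethanol 3 or ESC tamoxifen 2). For Rpa2 the difference of effects turned to -0.14 with the mean of probes. The cause was not tested.

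With tamoxifen in ESC, members called numbered 0 with equal medians, 1 with the mean of probes or in round 1 alone, 4 with the authors' table or no background correction, and 5 with the random block, array weights or replicate block. All genes called there numbered 390 in round 1, 1448 with array weights and 2039 with the replicate block, beside 856. In EpiLC, members numbered 1 with the mean of probes, in round 1, with the random block or with array weights, and 5 with the replicate block, and all genes 1064 with the authors' table, 336 in round 1 and 1876 with the replicate block, beside 651. For the difference of effects, members numbered 1 with equal medians, the authors' table or the replicate block, and all genes 397 with the authors' table, 61 in round 1 and 1147 with the replicate block, beside 244. With each sample left out in turn, members numbered 1 to 2 in ESC (1 without ESC ethanol 2 or ESC tamoxifen 1), 1 to 2 in EpiLC (2 only without EpiLC ethanol 1), 9 to 11 between the cell types in ethanol, 8 to 12 in tamoxifen and 0 to 1 for the difference (1 without ESC tamoxifen 3). All genes then numbered 523 to 579 in ESC (under 856 divided by 1.5 without ESC ethanol 1 or 3 or ESC tamoxifen 1 or 3), 357 to 548 in EpiLC (lowest without EpiLC tamoxifen 3), 4732 to 5016 and 4709 to 5138 between the cell types, and 109 to 198 for the difference.

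Equal medians set the median of all genes at 0.09 in ESC, -0.09 in EpiLC, -0.10 between the cell types in tamoxifen and -0.18 for the difference, with member medians of -0.01, -0.21, -0.19 and -0.20. Calls over all genes then split into 794 higher and 120 lower in ESC, 315 and 243 in EpiLC, 2096 and 3007 between the cell types in tamoxifen, and 78 and 258 for the difference. With the authors' values, 625 genes were higher and 439 lower in EpiLC. Between the cell types in ethanol, deviations of same-numbered samples had correlations of 0.0599, 0.121 and 0.253. There the replicate block made 5 members higher and 9 lower, adding Mcm6 and Mcm7 (limma adjusted p 0.0232 and 0.018). Calls over all genes then numbered 5832 in place of 5300. In tamoxifen, Cdc45, Gins3, Gins4, Lig1, Mcm5 and Rfc1 lost the call in at least 1 alternative. Dim probes (Orc3, Chek1) had log2 differences of 0.51 and 0.29 between the cell types in ethanol where no background was removed.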
